A study of Mus musculus with 16 samples.

Results

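Lipid droplet-associated hydrolase (LDAH) is a protein of the lipid droplet surface with a lipase fold, and the data described here are the transcriptome of foam cells from mice that lack it. RNA from peritoneal macrophages (PM) of LDAH-KO mice was set against RNA from PM of WT littermates, 8 of the 16 samples of the series. Both groups held 4 samples each on the C57BL/6J strain, and both were PM taken 5 days after 3% thioglycolate and loaded with oxidized LDL (oxLDL) at 50 μg/ml for 48 h. The KO is global, in every cell type of the mouse, and was made in C57BL/6 by homologous recombination: a selection cassette takes the place of exons 2 and 3 of *Ldah*, which open the coding sequence, and of a piece of exon 4. The sources used here do not state whether these mice also carried the *Apoe* deletion of the study's lesion experiments. *Apoe* had 9565 TPM in WT and 10404 in LDAH-KO PM. Sterol export genes, *Apoe* among them, summed to 10905 TPM in WT PM and 10073 in transgene controls whose genotype label names ApoE. The RNA level of *Apoe* therefore does not settle the genotype. The deposited values are the authors' mean TPM (transcripts per 1000000 transcripts, a level that takes transcript length into account) of each group. Since values per mouse are not among them, no SD, p-value or replicate check can be given for any difference, the depth is unknown, and "lower" and "higher" describe sizes and not tests. Of 48432 genes in the table, 11289 had a mean of at least 1 TPM over both groups and neither group at 0, and 10436 of these encode protein. Log2 ratios of LDAH-KO to WT were taken after adding 0.5 TPM to each mean.

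Macrophages take up oxidized LDL through scavenger receptors, split its cholesterol esters in the lysosome and store the sterol again as esters in lipid droplets. Hydrolases return it from the droplets, and oxidized sterols freed on the way can activate the liver X receptors (LXR), which raise sterol export genes and dampen inflammatory ones. Elicited PM also make cytokines, chemokines and complement, and a peritoneal exudate can hold some stromal and mesothelial cells besides macrophages.

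The cultures had the transcripts of macrophages in both groups. *Tyrobp*, the signaling adaptor of myeloid receptors, had 6857 TPM in WT and 7871 in LDAH-KO PM. The scavenger receptor gene *Cd68* had 3321 and 3023 TPM, and *Adgre1*, which encodes F4/80, had 146 and 147 TPM. Of 12 macrophage markers, 10 had values, with a median log2 ratio of -0.10 that was near 0 among genes alone in their locus. The lysozyme gene *Lyz2*, which macrophages express at high levels, was listed at 0 in both groups, so a 0 in this table can be a failed estimate. The Y-linked *Eif2s3y* (59.1 and 54.8 TPM) and *Ddx3y* (34.7 and 28.9 TPM) were present in both groups, while *Xist*, the RNA of the silenced X chromosome, stayed under 0.01 TPM in both.

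*Ldah* itself was lower but not absent. The gene (ENSMUSG00000037669.14, GRCm38 chr12:8208107-8285759, plus strand) had 44.5 TPM in WT and 27.9 in LDAH-KO PM, which is 62.6% of WT (log2 ratio -0.67). Its longest coding transcript has 7 exons and 2737 nt, and the replaced exons 2 and 3 hold 300 nt of it and 30.4% of the coding sequence. The last exon alone holds 68.0% of the transcript, and exons 5 to 7 together hold 79.6%. A mean per gene therefore adds up mostly sequence outside the replaced part, and does not show whether exons 2 and 3 were read. The coding part of exon 2 (chr12:8220602-8220755, plus strand, GRCm38, from the GENCODE M21 transcript) is shown because it holds the start codon, in capitals, which the KO allele lacks.
Ldah exon 2: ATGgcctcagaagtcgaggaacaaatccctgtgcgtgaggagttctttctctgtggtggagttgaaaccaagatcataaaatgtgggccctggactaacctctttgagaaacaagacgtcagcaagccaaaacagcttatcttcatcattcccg
The study's own primers for *Ldah*, shown because of where they lie, match bases 2443 to 2462 and, for the reverse primer, 2527 to 2546 of the same transcript, inside exon 7 and past the stop codon.
Ldah forward: ctggtgtctgcacaaggatg
Ldah reverse: gattcccaccagtgaccaag
They span 104 nt, again outside the replaced exons. The study states that PCR and western blotting showed a complete KO in homozygous mice. The values here are of RNA alone.

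The genes around *Ldah* on chromosome 12 showed no common difference. Of the 5 genes on each side, 3 had values, all downstream. *Hs1bp3*, which starts 105 kb from the start of *Ldah*, had a log2 ratio of -0.10, and *Rhob*, a small GTPase gene 290 kb away, had 241 TPM in WT and 244 in LDAH-KO PM. *Pum2*, an RNA-binding protein gene 466 kb away with a long transcript, had 103 and 76.3 TPM, a log2 ratio of -0.44. The nearest gene upstream with a name, *Apob*, and *Gdf7* and *Slc7a15* downstream were listed at 0 in both groups.

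LDAH-KO PM differed from WT PM mainly by lower values. Of the 11289 genes, 207 (1.83%) had a mean in LDAH-KO PM that was lower 1.5-fold or more, and 44 (0.390%) one that was higher. Among protein-coding genes 145 (1.39%) were lower and 9 (0.0862%) higher. By any size 67.8% of protein-coding genes were lower and 32.2% higher, with a median log2 ratio of -0.08 and the middle 90% of genes between -0.39 and 0.18. That median depends on the scaling chosen. Median-ratio scaling sets the median of all genes at 0 by construction. With the same distribution forced on both columns, quantile normalization put it close to 0. Neither shows which scaling is right. Quantile normalization of the pair of columns gave 134 lower and 80 higher genes, so 62.6% of the genes past the factor were lower against 82.5% as deposited. The genes next to the limit were *Rab6b*, inside it at -0.59, and *Rbm12*, just outside at -0.58. Most of the 145 were weakly expressed: 97 had a mean under 5 TPM over both groups. Over all gene types the share lower by the factor was 8.54% at means of 1 to 2 TPM, 4.72% at 2 to 5 TPM and under 1% from 10 TPM upward. In the plot of group means the 145 genes form the lower edge of the cloud at its left, and the exceptions with high levels are few.

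**Figure D1:**
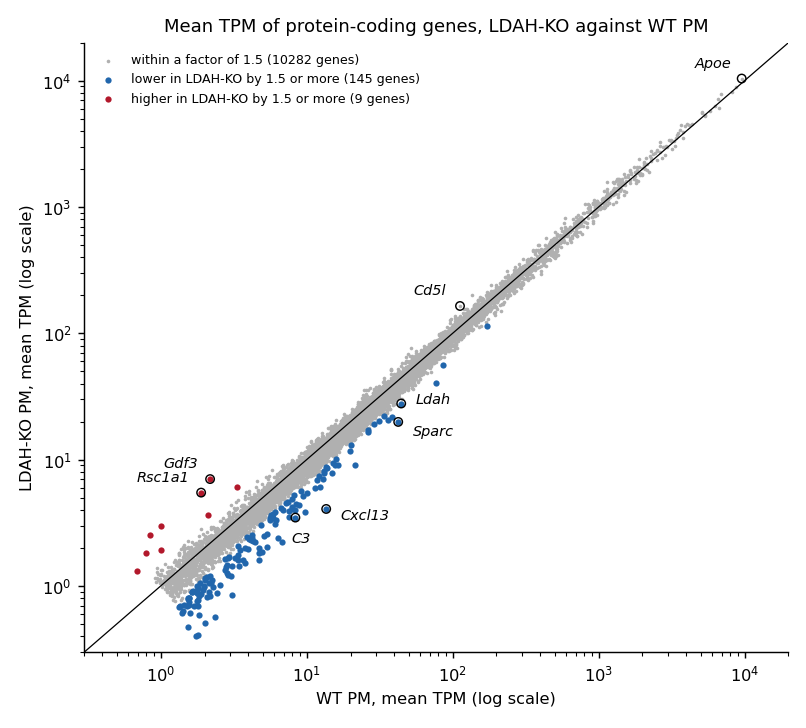
Mean TPM of 10436 protein-coding genes in WT PM (x axis) and LDAH-KO PM (y axis), both on log scales, each point 1 gene and the line equality. The 145 genes lower by a factor of at least 1.5 (blue) lie mostly below 20 TPM, and the 9 higher genes (red) all lie below 10 TPM.

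The size of the ratio followed the length of the transcript. Protein-coding genes whose longest coding transcript has under 750 nt had a median log2 ratio of 0.16 (n = 226), those from 2000 to under 3000 nt -0.04 (n = 2326), and those of 6000 nt or more -0.26 (n = 1339). The medians of the 8 length classes descended without exception, and the share of genes lower by any size went from 13.3% in the shortest class to 95.4% in the longest. Across the 10436 genes, which come from the same 2 means and are not independent, the log2 ratio and the length had a Spearman's rho of -0.62. The split was there at every level: among genes from 5 to 20 TPM, transcripts under 1500 nt had a median of 0.07 (n = 256) and those of 4000 nt or more -0.22 (n = 1337), and at 100 TPM or more the values were 0.11 and -0.14. In the other comparison of the series, PM with an LDAH transgene driven by the myeloid *Csf1r* promoter and enhancer (LDAH-Tg, 4 samples) against their controls (4 samples, with a genotype label that also names ApoE), the 10195 protein-coding genes with values there showed almost no such order (Spearman's rho -0.01). There the longest class had a median of -0.0084 and the shortest 0.08. The difference between the comparisons was not tested. Below, a length-centered value is the log2 ratio minus the median of genes of like transcript length, in 20 classes of equal size, a step chosen after the trend was seen. After it, 179 of 11262 genes (1.59%) were lower by the factor and 38 (0.337%) higher, and 98 of the 145 protein-coding genes were still lower by it.

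**Figure D2:**
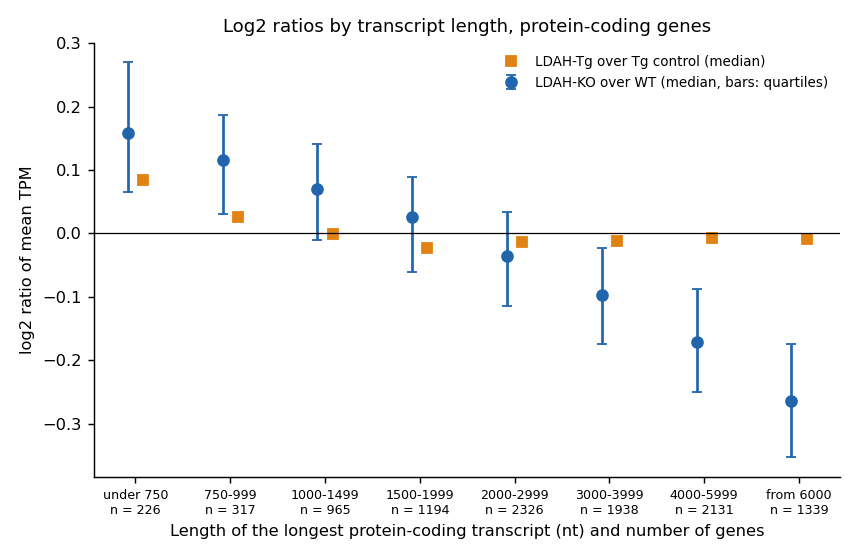
Median log2 ratio of mean TPM (y axis) of protein-coding genes in 8 classes of transcript length (x axis, in nt, with the number of genes). Circles with quartile bars are LDAH-KO over WT and descend from 0.16 to -0.26, and squares are LDAH-Tg over its controls and stay between -0.02 and 0.08.

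Chemokines, the secreted peptides that draw leukocytes to a tissue, included several of the lowest ratios. Of 26 listed chemokine genes, 14 had values, 6 were lower by the factor (1.83% of all genes were), 0 were higher by it, and the median log2 ratio was -0.36. That median was -0.12 with no minimum level, -0.12 with a minimum of 5 TPM and -0.77 among genes alone in their locus. The length-centered median was -0.47, since most of these transcripts are short. The B cell attractant gene *Cxcl13*, a product of resident serosal macrophages and stroma, had 13.6 TPM in WT and 4.08 in LDAH-KO PM. Its ratio of -1.63 was the lowest of all protein-coding genes with at least 5 TPM. Genes of neutrophil attractants were lower too: *Cxcl1* had 11.4 TPM in WT and 6.02 in LDAH-KO PM (log2 ratio -0.86). *Cxcl5* had 5.32 and 2.05 TPM (-1.19). The monocyte attractant genes stood at 8.51 and 4.46 TPM for *Ccl7* (-0.86) and 37.0 and 25.1 TPM for *Ccl2* (-0.55, just short of the factor). *Cxcl12*, which holds CXCR4-bearing cells in place and is typical of stroma, had 5.10 and 2.48 TPM (-0.91), and the T cell attractant gene *Ccl5* had 1.94 and 0.928 TPM (-0.77). The abundant macrophage chemokines were level. *Ccl6* had 1294 TPM in WT and 1259 in LDAH-KO PM, and *Ccl9* had 506 and 482 TPM. *Ccl3* and *Ccl4*, which encode inflammatory macrophage proteins, had log2 ratios of -0.16 and 0.0037. All 6 genes lower by the factor had under 15 TPM in WT. The platelet factor gene *Pf4* had the highest ratio, 0.16. In whole cultures fewer cells of a type and less RNA per cell cannot be told apart. Mesothelial markers, 3 of 4 with values, and fibroblast markers, 4 of 5, were lower by the factor in the same means, and their part in the chemokine values was not tested.

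Start regions of 3 of those 6 chemokine genes are in the RefSeq promoter table (GRCm38.p6): *Cxcl13*, *Cxcl1* and *Cxcl12*. The 250 bases before the start were searched on both strands for GGGNNNTTCC, a pattern of NF-kB sites, and for TATAAA, the TATA box. GGGNNNTTCC occurs in 4.65% of 32851 such regions and TATAAA in 12.4%. *Cxcl1* (chr5:90890995-90891244, plus strand) holds GGGNNNTTCC in 3 places, a pair of which overlap, from 89, 71 and 70 bases before the start. *Cxcl13* (chr5:95956689-95956938, plus strand) holds TATAAA from 46 bases before the start and no GGGNNNTTCC, and *Cxcl12* holds neither in this window. The regions with a match are shown, with the matches in capitals.
Cxcl1: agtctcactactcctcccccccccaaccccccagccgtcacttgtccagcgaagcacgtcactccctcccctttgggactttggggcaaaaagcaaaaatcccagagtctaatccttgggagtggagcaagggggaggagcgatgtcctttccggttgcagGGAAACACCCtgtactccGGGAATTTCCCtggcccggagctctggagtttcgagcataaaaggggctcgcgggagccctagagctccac
Cxcl13: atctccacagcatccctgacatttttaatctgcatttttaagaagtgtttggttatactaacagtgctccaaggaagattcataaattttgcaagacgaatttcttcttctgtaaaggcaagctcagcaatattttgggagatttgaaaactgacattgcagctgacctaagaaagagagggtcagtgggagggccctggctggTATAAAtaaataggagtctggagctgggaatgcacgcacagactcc
The letters describe the sequence and say nothing on which factor was bound.

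Cytokine genes as a group were level, with one exception. Of 22 listed cytokine and inflammasome genes, 13 had values and their median log2 ratio was 0.02, or -0.01 once length-centered. *Tnf*, the archetypal inflammatory cytokine, had 8.60 TPM in WT and 9.12 in LDAH-KO PM. *Pycard*, the inflammasome adaptor gene, had 96.6 and 121 TPM (log2 ratio 0.32), and the interleukin 1 antagonist gene *Il1rn* had 338 and 275 TPM (-0.30). *Csf1*, the growth factor on which macrophages depend, was the exception, with 3.66 TPM in WT and 1.60 in LDAH-KO PM (-0.98). *Il34*, the other ligand of the same receptor and named after its value was seen, had 1.75 and 0.399 TPM (-1.32), in a locus that the authors' table merges with overlapping genes. The receptor gene *Csf1r* was abundant, with 108 and 94.2 TPM (-0.20, length-centered -0.03). *Il1b*, *Il6*, *Il12b* and *Nos2* were under 1 TPM or at 0 in both groups.

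None of the sensing and interferon genes passed the factor. Of 28 Toll-like receptor and NF-kB genes, 22 were lower by any size (67.8% of all protein-coding genes were), with a median of -0.18 and a length-centered median of -0.07. *Tlr9*, a receptor for DNA in endosomes, had the lowest ratio (-0.53), and *Tlr3*, a receptor for double-stranded RNA, had 9.47 and 6.92 TPM (-0.43). *Ly96*, the short coreceptor of TLR4, had the highest (0.18). Interferon response genes had 19 of 28 lower by any size, which is the share of all protein-coding genes, and a median of -0.15 that was -0.05 once length-centered. *Parp14* and *Stat2* were lowest (-0.36 and -0.36), while *Irf7*, which drives interferon genes, had 0.17.

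Complement genes did not differ as one group. Of 16 with values, 4 were lower by the factor (against 1.83% of all genes), and the median was -0.15. The protease gene *C1s1* had 4.97 TPM in WT and 1.85 in LDAH-KO PM (-1.22), and the central component *C3* had 8.38 and 3.48 TPM (-1.16). The inhibitor genes *Cd55*, which breaks up convertases, and *Serping1*, which blocks C1, had log2 ratios of -0.81 and -0.60. *C1s1* and *C3* each share a merged locus with an overlapping gene, so their values are less certain. In contrast, the chains of C1q, which macrophages supply, had higher means. *C1qb* had 386 TPM in WT and 461 in LDAH-KO PM (0.26), *C1qc* 239 and 282 TPM (0.23), and *C1qa* 84.0 and 94.8 TPM (0.17). All 3 stayed above 0 after length centering (0.18, 0.16 and 0.06), and none passed the factor. The complement receptor integrins *Itgax* and *Itgam* were lower by any size, from 406 to 296 TPM (-0.46) and from 273 to 217 TPM (-0.33).

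*Tmem176a* and *Tmem176b*, which encode 4-pass membrane proteins of dendritic cells and macrophages and share a merged locus, had log2 ratios of -1.23 and -0.84. The related Ms4a genes did not follow: the other 5 members with values lay between -0.0038 (*Ms4a8a*) and 0.19 (*Ms4a7*). The 6 genes of MHC class II with values had a median of 0.13, led by *H2-Eb1* (0.26), and MHC class I genes 0.07 over 15. None of either class passed the factor.

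**Figure D3:**
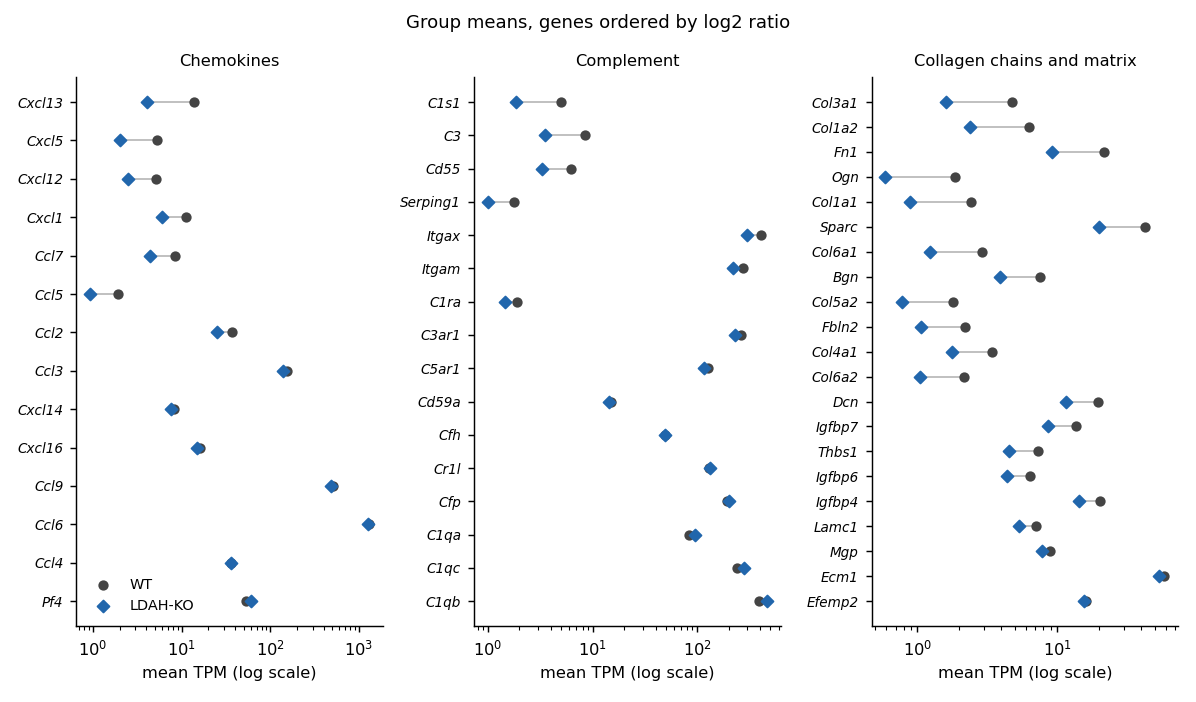
Mean TPM (x axes, log scale) of the chemokine, complement, and collagen and matrix genes with values in WT PM (circles) and LDAH-KO PM (diamonds), 1 gene a row, ordered by log2 ratio. The wide gaps are at the top of each panel, such as *Cxcl13* with 13.6 and 4.08 TPM, and the abundant *Ccl6* and *C1qb* show nearly touching symbols.

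Genes of the extracellular matrix were lower in LDAH-KO PM almost throughout. Of 20 collagen chain genes, 7 had values and all 7 were lower by the factor (against 1.83% of all genes). Over all genes that share was 8.54% at 1 to 2 TPM and 4.72% at 2 to 5 TPM. The chains had a median log2 ratio of -0.98 and a length-centered median of -0.84. The list holds chains that the study itself shows from these samples, so its direction was known when it was written. The fibrillar chain gene *Col3a1* had 4.75 TPM in WT and 1.61 in LDAH-KO PM, and *Col1a2* and *Col1a1*, the chains of type I collagen, had log2 ratios of -1.24 and -1.09. *Col5a2*, of a minor fibrillar collagen, stood at -0.85. The microfibril chains *Col6a1* and *Col6a2* stood at -0.98 and -0.77 on the log2 scale, and the basement membrane chain *Col4a1* at -0.78. The other 13 chains had means below 1 TPM and are given no ratio, but all 13 were lower by any size as well, such as *Col4a2* with 1.27 and 0.566 TPM. Matrix glycoproteins and proteoglycans had a median of -0.64, with 8 of 14 lower by the factor (1.83% of all genes) and all 14 lower by any size (67.8% of protein-coding genes). *Fn1*, which encodes fibronectin, had 21.5 TPM in WT and 9.16 in LDAH-KO PM, and *Sparc*, a collagen-binding protein gene, 42.4 and 19.9 TPM. The small proteoglycan genes *Bgn* (-0.87), *Dcn* (-0.74) and *Ogn* (-1.11) were lower by the factor, as were the fibulin gene *Fbln2* (-0.80), *Igfbp7* (-0.65) and the thrombospondin gene *Thbs1* (-0.63), whereas *Ecm1* and *Efemp2* were nearly level (-0.12 and -0.04). Among 12 collagen processing genes the lower ones were the collagen chaperone gene *Serpinh1* (-0.88) and the procollagen enhancer gene *Pcolce* (-0.81). The broadly used prolyl hydroxylase gene *P4hb* (683 and 607 TPM) and the osteoclast and macrophage protease gene *Ctsk* (1634 and 1633 TPM) stayed close to WT.

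Lists of cytoskeleton, growth factor and protease genes had fewer members past the factor. *Acta2*, smooth muscle actin, had 7.92 TPM in WT and 4.25 in LDAH-KO PM (-0.83). *Myl9*, a myosin light chain, had 1.53 and 0.477 TPM (-1.06), and the tropomyosin gene *Tpm2* 5.63 and 3.43 TPM (-0.64). The actin bundler gene *Fscn1* had 8.33 and 3.97 TPM (-0.98). In all, 5 of 22 adhesion and cytoskeleton genes were lower by the factor (1.83% of all genes), 2 of 11 TGF-beta and BMP genes and 1 of 6 Wnt and Sfrp genes. The cytoskeleton genes that macrophages use in bulk were close to WT, among them *Actb* (2500 and 2342 TPM) and *Vim* (2530 and 2802 TPM). *Ctgf*, a matricellular target of TGF-beta, had -0.91, and *Smad3*, which carries the TGF-beta signal, 4.01 and 2.36 TPM (-0.66, length-centered -0.48). The ligand gene *Tgfb1* (222 and 203 TPM) and the receptor gene *Tgfbr2* (-0.17, length-centered 0.15) were near WT. *Sfrp5*, a secreted Wnt antagonist of adipose and mesothelial tissue, had 36.2 and 20.5 TPM (-0.80). *Timp3*, a matrix-bound protease inhibitor, was the only one of 13 metalloproteinase and inhibitor genes lower by the factor (-0.65, length-centered -0.48). Named after their values were seen, *Serpinf1* (6.74 and 2.24 TPM), *Igfbp3* (3.08 and 0.851 TPM) and the lysophosphatidic acid enzyme gene *Enpp2* (2.19 and 0.842 TPM) were among the other secreted proteins with lower means.

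Markers of fibroblasts, mesothelium and smooth muscle with values were lower as well. Those of neutrophils (4 with values), B cells (3) and dendritic cells (3) had 0 lower by the factor. These are too few genes for a 0 to set their lists apart. Of 12 fibroblast markers 5 had values and 4 were lower by the factor. Of all genes 1.83% were, as for the lists that follow, with 8.54% at 1 to 2 TPM and 4.72% at 2 to 5 TPM. The summed level of the list went from 357 TPM in WT to 338 TPM in LDAH-KO PM. Nearly all of it was *Gsn* (319 and 318 TPM), which macrophages also express. The fibroblast receptor gene *Pdgfra* had 4.74 and 1.83 TPM, and the secreted protein gene *Ccdc80* 7.59 and 3.54 TPM. The defining markers *Pi16*, *Dpt* and *Lum* were each under 0.5 TPM in both groups. Of the 7 fibroblast markers with means below 1 TPM, 4 were lower by any size and the others were not. With no minimum level the median log2 ratio of the fibroblast list was -0.18. Mesothelial markers had 4 of 14 genes with values, 3 lower by the factor, and sums of 12.7 and 7.84 TPM. *Wt1*, the mesothelial transcription factor gene, had 2.75 and 1.35 TPM, *Upk3b*, a uroplakin gene, 1.80 and 0.694 TPM, and the membrane glycoprotein gene *Gpm6a* a log2 ratio of -0.62, while the keratin genes *Krt8* (0.535 and 0.698 TPM) and *Krt18* (0.644 and 0.760 TPM) were higher in LDAH-KO PM at levels below 1 TPM. Smooth muscle and pericyte markers summed to 15.4 and 8.09 TPM, with *Des*, *Acta2* and *Tagln* lower by the factor and the defining *Myh11* under 0.05 TPM in both. Endothelial markers summed to 16.5 and 14.7 TPM, most of it *Vwf*, with *Cldn5* and *Emcn* at 0. The part of these cells in the complement, matrix and cytoskeleton values was not tested.

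The genes of lipid storage and sterol handling differed little. After *Ldah*, the largest ratios among 16 genes of the lipid droplet and the cholesterol ester cycle were those of *Npc1*, the lysosomal sterol exporter (-0.33, length-centered -0.15), *Mgll*, monoacylglycerol lipase (-0.32), and *Soat1*, which esterifies cholesterol (708 and 589.6 TPM, -0.26, length-centered 0.05). The neutral cholesterol ester hydrolase gene *Nceh1* had 276 TPM in WT and 253 in LDAH-KO PM. *Plin2*, the main droplet coat protein of foam cells, had 3397 and 3507 TPM. LXR targets had a median of -0.06 over 16 genes, and none passed the factor. That median was 0.03 once length-centered and -0.05 among genes alone in their locus. With quantile normalization it stayed just below 0. Under median-ratio scaling it was 0.02, but that scaling sets the median of all genes at 0 by construction, so the sign there is no separate result. The exporter gene *Abca1*, whose transcript is among the longest, had a log2 ratio of -0.37 and a length-centered value of -0.06. *Cd5l*, which encodes a secreted scavenger receptor-like protein and is an LXR target of macrophages, had the highest ratio of the list, with 112 TPM in WT and 165 in LDAH-KO PM (0.55, length-centered 0.56). All 12 fatty acid synthesis genes with values were lower by any size, against 67.8% of all protein-coding genes (median -0.20), with a length-centered median of -0.05. For cholesterol synthesis these values were -0.12 over 20 genes and -0.04. *Fdps*, of the mevalonate pathway, had the highest ratio of the sterol genes (0.25). None of either list passed the factor.

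Resident peritoneal macrophage genes parted in opposite directions. Of 11 with values, only *Cxcl13* passed the factor. *Gata6*, the master transcription factor of resident PM, had 1.83 and 1.11 TPM (-0.54), whereas *Cd5l*, the lectin gene *Fcna* (22.6 and 27.8 TPM) and the adhesion gene *Icam2* (4.52 and 6.13 TPM) had ratios of 0.55, 0.29 and 0.40. The list median was 0.08. Genes of the Trem2 foam cell program stayed near WT, with a median of 0.05 over 13 genes and -0.01 once length-centered. *Trem2*, the lipid-sensing receptor, had 2145 TPM in WT and 2187 in LDAH-KO PM, *Spp1*, osteopontin, 6539 and 7158 TPM, and the fatty acid binding protein gene *Fabp5* 8743 and 8852 TPM. Alternative activation genes had a median of -0.08 over 10, and *Mrc1*, the mannose receptor gene, stood at -0.37.

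**Figure D4:**
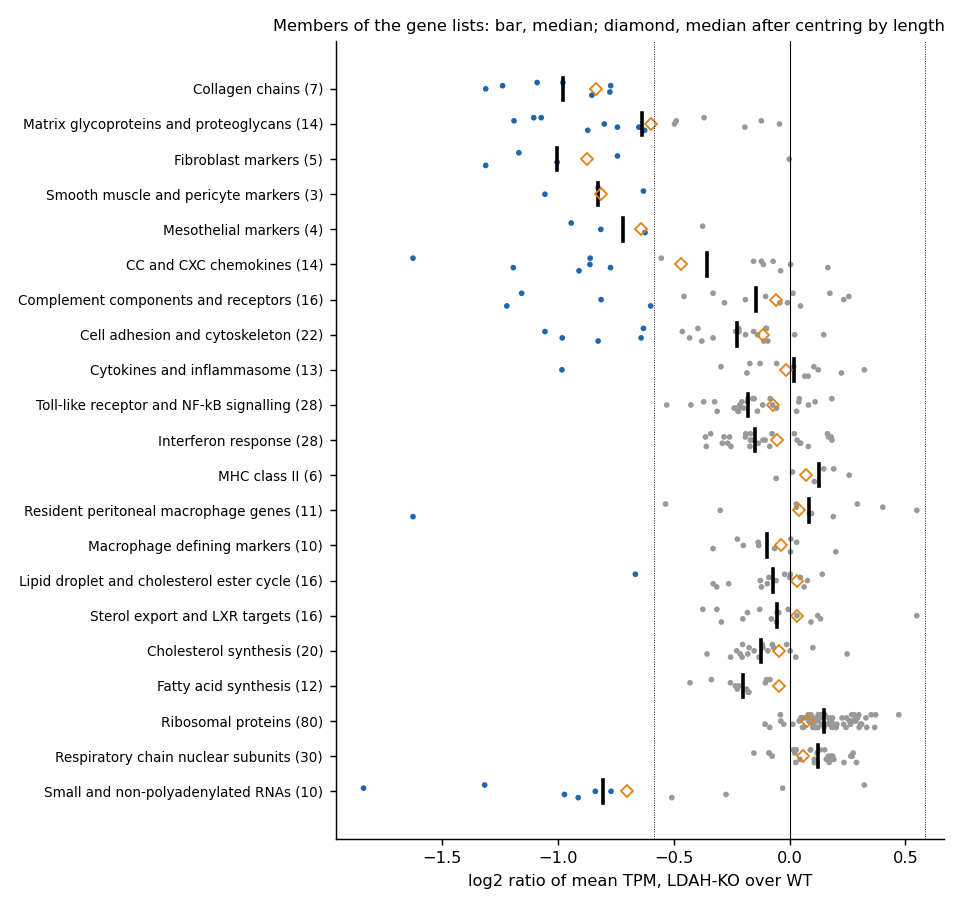
Log2 ratio of mean TPM, LDAH-KO over WT (x axis), of each member of 21 gene lists (rows, with the number of members with values). Points past the dotted lines at a factor of 1.5 are blue when lower, bars are list medians and diamonds are medians after centering by transcript length. The collagen chains lie wholly to the left (median -0.98), and ribosomal proteins mostly to the right of 0 (median 0.15).

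Among the genes with slightly higher means were nuclear genes of short, abundant transcripts. Of 80 ribosomal protein genes 75 were higher by any size, against 32.2% of all protein-coding genes, and none by the factor. Their median was 0.15, or 0.07 once length-centered. Together they took 113328 TPM in WT and 127182 in LDAH-KO PM. *Rps21* had 1145 and 1587 TPM, and *Rpl22l1*, a paralog of a ribosomal protein gene, 136 and 200.2 TPM (0.56). Nuclear genes of the respiratory chain were similar, 26 of 30 higher by any size (median 0.12, length-centered 0.06). *Cox4i1* of complex IV had 936 and 1143 TPM, in a merged locus of 189 genes, and *Atp5e*, of ATP synthase, 587 and 818 TPM. The mitochondrially encoded genes, also short and abundant, went the other way, with 8 of 9 lower by any size (median -0.14, length-centered -0.20). *mt-Nd5*, for example, had 1489 and 1241 TPM. Lower by any size was the usual direction, with 66.6% of all genes compared. Proteasome subunits had a median of 0.09 over 39 genes and a length-centered median of 0.05.

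Some genes with long transcripts passed the factor as deposited but not once length-centered. The examples here were picked after their values were seen and stand for no list. *Ncor1*, a corepressor of nuclear receptors including LXR, had 85.6 TPM in WT and 56.5 in LDAH-KO PM (-0.60), and the coactivator gene *Ncoa2* stood at -0.59. The histone methyltransferase gene *Kmt2a* stood at -0.63, the methylcytosine dioxygenase gene *Tet2* at -0.66 and the deacetylase gene *Hdac4* at -0.62. All 5 passed the factor as deposited, and none did once length-centered (-0.28, -0.28, -0.32, -0.35 and -0.31). The macrophage and blood transcription factor gene *Runx1* likewise went from -0.59 to -0.38. Of the 145 lower protein-coding genes, 62 had transcripts of 4000 nt or more, but many of the genes compared are that long. From 4000 to under 6000 nt, 33 of 2131 genes were lower by the factor. At 6000 nt or more it was 29 of 1339, against 145 of all 10436 protein-coding genes (1.39%).

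RNAs that carry no poly(A) tail differed by kind. The list of small and nuclear noncoding RNAs also holds *Lars2*, which encodes protein. Of the 10 listed genes with values, 6, *Lars2* among them, were lower by the factor and 0 higher, with a median of -0.81. Over all genes compared 1.83% were lower and 0.390% higher, and over the 853 that do not encode protein 7.27% and 4.10%. *Rmrp*, the RNA of the mitochondrial RNA processing ribonuclease, had 16.5 and 4.25 TPM (-1.84), and *Rn7sk*, which holds back transcription elongation, 28.7 and 11.2 TPM (-1.32). *Rpph1*, the RNA of ribonuclease P, had -0.77, the small nucleolar RNA gene *Snora73a* -0.97 and the nuclear *Malat1* -0.84. The 12 genes annotated as snoRNA with values had a median of 0.30, with 5 higher and 2 lower by the factor. The libraries were selected for poly(A) RNA. *Mir6236* (674 and 149.8 TPM) had the lowest ratio of all noncoding genes with at least 5 TPM (-2.17). *Lars2*, the protein-coding member of the list and a mitochondrial leucyl-tRNA synthetase gene, had 77.2 and 40.8 TPM (-0.91). Of genes listed at 0 in 1 group, 16 had at least 50 TPM in the other, 11 of them snRNA genes. The only one of the 16 that encodes protein was *Lpl*, lipoprotein lipase, at 3544 TPM in WT and listed at 0 in LDAH-KO PM. It was listed at 0 in both groups of the LDAH-Tg comparison as well, so no ratio is given.

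Few protein-coding genes were higher in LDAH-KO PM by the factor, and all 9 were weakly expressed. They were named after their values were seen. *Gdf3*, a growth factor of the TGF-beta family made by macrophages, had 2.18 TPM in WT and 7.03 in LDAH-KO PM (1.49), the highest ratio of the protein-coding genes. *Rsc1a1* (1.90 and 5.49 TPM) and *Ggnbp1* (0.841 and 2.55 TPM) share merged loci with other genes. The histone H4 gene *Hist1h4h* had 1.00 and 3.00 TPM, and *Cox7a1*, the heart-type subunit of complex IV, 3.32 and 6.07 TPM. The other 4 were *Ugt1a6b*, *2200002D01Rik*, *Gm14419* and *Gm12216*, with log2 ratios from 0.60 to 0.85. Among protein-coding genes with at least 5 TPM none passed the factor upward. The highest there, after *Rpl22l1*, were *Gm11808* (0.56), *Cd5l*, the small GTPase gene *Rac3* (0.51) and *Ptp4a1*, a phosphatase gene with 49.1 and 68.8 TPM (0.48, length-centered 0.62).

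In PM with more LDAH few of these genes passed the factor the opposite way. The LDAH-Tg and Tg control groups share no sample with LDAH-KO and WT. Of the 145 protein-coding genes lower in LDAH-KO PM, 116 had values there, 5 were higher in LDAH-Tg PM by the factor (1.26% of all genes in that comparison were) and 2 lower (0.685% of all genes). Among the 10858 genes with values in both comparisons, the factor was passed upward by 58 and downward by 62. By any size 78 of the 116 were higher (67.2%), with a median log2 ratio of 0.07. Of all genes with values in both comparisons 49.0% were higher, and of all genes in that of LDAH-Tg 50.5%. *Ldah*, which the transgene itself raises, is counted in the 5, in the 78 and in the 97 of all types below. Over all gene types, 21 of 35 genes higher in LDAH-KO PM by the factor were also higher by any size in LDAH-Tg PM (median 0.08). Of the lower genes of all types, 97 of 149 were higher there (median 0.07). Among the higher protein-coding genes with values it was 5 of 8. Over all genes the median in LDAH-Tg PM was 0.11 at 1 to 2 TPM and 0.05 at 2 to 5 TPM. The 145 lower genes had a median level of 3.19 TPM, and the part of level in their LDAH-Tg values was not tested. Matrix genes had positive medians in LDAH-Tg PM, 0.12 for collagen chains and 0.13 for glycoproteins and proteoglycans. Chemokines had 0.0082: *Cxcl1* stood at 0.15 and *Ccl7* at 0.26, while *Cxcl13* and *C3* were lower in LDAH-Tg PM too (-0.50 and -0.46). *Gdf3* was level there (2.16 and 2.16 TPM). The transcripts without a poly(A) tail *Rmrp* and *Rn7sk* were lower in both comparisons (-1.24 and -1.05 in LDAH-Tg PM). *Csf1* had 0.21 and *Tmem176a* 0.09 in LDAH-Tg PM. None of these differences between the comparisons was tested.

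**Figure D5:**
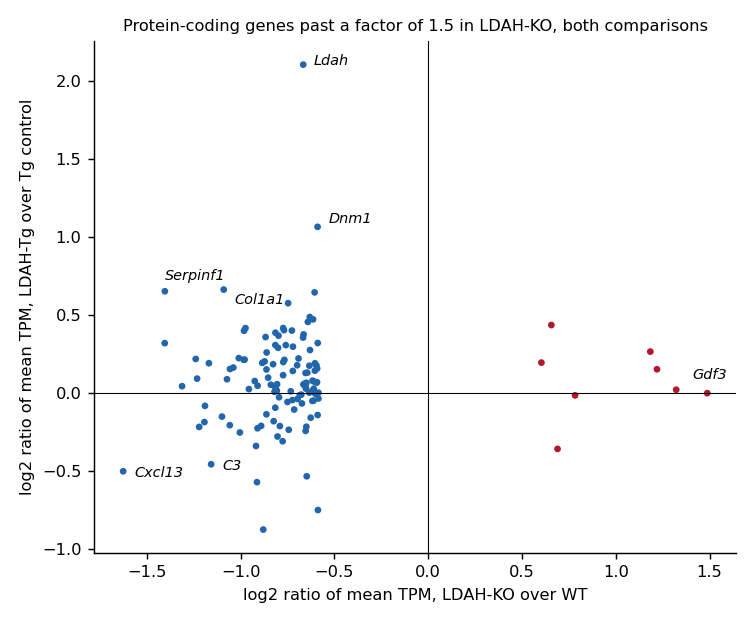
Log2 ratios of LDAH-KO over WT (x axis) and of LDAH-Tg over its controls (y axis) for the protein-coding genes past a factor of 1.5 in LDAH-KO PM with values in both, blue when lower and red when higher. *Ldah* lies at -0.67 and 2.10, *Col1a1* at -1.09 and 0.66, and most points sit within 0.5 of 0 on the y axis.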

How the data were processed

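RNA of oxLDL-treated PM was sequenced from poly(A)-enriched libraries, and the LDAH-KO and WT groups (4 samples each) were compared. The authors trimmed the reads (Trimmomatic) and aligned them to GRCm38 (mm10) using STAR version 2.4.2a, and the submitters' processing notes also list HTSeq, Cuffdiff (2.2.1), DESeq2 and bcl2fastq (2.17.1.14). The tool that made the TPM values and the annotation release are not given in the sources used here. The deposited table holds the authors' mean TPM of each group, a signal per gene that sums to 1000000 over the genes, and 1 line with no gene that was dropped. Since it gives no values of single samples, the depth and the spread are unknown and no test was made. Of the genes compared, 50.4% share a merged locus with an overlapping gene. A gene had to have a mean of at least 1 TPM and no group at 0. Ratios used a pseudocount of 0.5 TPM, and counts a factor of 1.5. Gene types, coordinates and transcript lengths came from GENCODE M21 (99.2% of identifiers matched), and start regions from RefSeq (GRCm38.p6).

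Genes to name were drawn from *Ldah* and 5 neighbors on each side, the 15 lowest and 15 highest protein-coding genes and the 5 lowest and 5 highest of other types at a mean of at least 5 TPM, the 5 members of each of 50 lists with the largest ratios and any member past the factor, and genes at 0 in 1 group with at least 50 TPM in the other. Genes outside this rule, such as *Rab6b*, *Rbm12*, list members with small ratios and those marked in the text, were chosen after their values were seen. The members and lists were chosen with earlier results of these data known. Pseudocounts, minimums, scaling, the factor and gene types were varied, and length centering and genes alone in their locus were added after the data were seen. The steps were tested on simulated data. The software was matplotlib 3.10.9, scipy 1.17.1, pandas 2.3.3 and numpy 2.4.6 on Python 3.11.15.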

Additional observations from a re-analysis of the deposited data

How the results depend on the processing

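No paired analysis was possible because the deposited table holds only group means, and for the same reason no replicate could be left out. Of all genes compared, 207 were lower and 44 higher by a factor of 1.5. With no minimum level these counts were 362 and 98, with a minimum of 5 TPM 64 and 11, with quantile normalization 134 and 80, with a factor of 2 46 and 17, and among genes alone in their locus 99 and 18. Keeping genes with a group at 0 gave 67 higher genes, and protein-coding genes alone gave 9. Pseudocounts of 0.1 and 1, no pseudocount, median-ratio scaling and length centering kept both counts within 1.5 times. The chemokine median was -0.12 with no minimum and -0.12 with a minimum of 5 TPM, and -0.77 among genes alone in their locus. With no minimum the medians were -0.52 for collagen chains, -0.18 for fibroblast, -0.31 for mesothelial and -0.086 for smooth muscle and pericyte markers, and with a minimum of 5 TPM the fibroblast median was -0.74. The Wnt and Sfrp median was 0.052 after length centering. The minimums and the choice of loci change which genes are compared, and length centering removes the trend with length by construction. For quantile normalization the cause was not tested. Of 48 list medians, 9 took the other sign with length centering and 9 with median-ratio scaling. With quantile normalization 6 did, counting the Trem2 foam cell program, whose median was 0 there. All of these medians lay between -0.2 and 0.1 as deposited. Of 356 named genes, 41 differed by over 0.2 with a pseudocount of 0.1 and 59 with length centering. Length centering and genes alone in their locus were chosen after the data were seen. With no depth given, the precision of genes near 1 TPM cannot be stated.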

Other observations

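Lysosome and V-ATPase genes had a median log2 ratio of -0.04 over 25 genes with none past a factor of 1.5, and the lowest was the lysosomal channel gene *Mcoln1* (156 TPM in WT and 115 in LDAH-KO PM, -0.43, length-centered -0.42). Chaperone and unfolded protein response genes had -0.03 over 22, from the calnexin gene *Canx* (-0.35) to *Trib3* (0.26), a pseudokinase gene of the stress response. Antioxidant genes had 0.02, led by the glutathione transferase gene *Gsta3* (25.5 and 33.4 TPM, 0.38), with the cystine transporter gene *Slc7a11* lowest (-0.38, length-centered -0.06). Iron handling genes had -0.11, glycolysis and hypoxia genes -0.08, fatty acid oxidation genes -0.05, scavenger receptors -0.11, Fc and paired receptors -0.05, and aminoacyl-tRNA synthetases -0.05. Histone genes had 0.07, TGF-beta and BMP genes -0.22, Wnt and Sfrp genes -0.17, metalloproteinases and inhibitors -0.18, the Tmem176 and Ms4a family 0.03 and Y-linked genes -0.25.

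Proliferation genes had a median of -0.14 over 24 genes, with *Mki67* lowest (-0.42, length-centered -0.10) and the replication clamp gene *Pcna* at 462 and 488 TPM. Among 18 immediate early genes (median -0.10) *Egr1*, a transcription factor gene, passed the factor (1.58 and 0.802 TPM, -0.67, length-centered -0.50). Other leukocytes left faint traces in both groups. The immunoglobulin M gene *Ighm* had 20.5 and 19.1 TPM and the light chain gene *Igkc* 1.16 and 2.47 TPM (0.83), with the B cell list median at -0.09. Neutrophil markers had 0.10 over 4 genes, with *Ly6g* at 0, dendritic cell markers -0.04 over 3, with *Siglech* at 0, and endothelial markers -0.24 over 3. T and NK cell markers and eosinophil and mast cell markers had too few genes with values for a median.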
